A study of Mus musculus with 16 samples.

Results

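Glucose sensing and stimulus-secretion coupling of the β cell were followed through 9 genes, taken by their symbols from the 2 deposited tables of islet RNA: Slc2a2, G6pc2, Kcnj11, Abcc8, Cacna1c, Cacna1d, Glp1r, Gipr and Ffar1. All 9 were found in both tables, among the 16815 genes that the tables share. In islets of B7-H4 cKO mice, Slc2a2, Cacna1c and Ffar1 passed the test against Flox islets. They fell by 0.47, 0.78 and 0.79 on the log2 scale, where the median of all genes tested was -0.34 and 12.8% were called lower. G6pc2 and Glp1r differed by 0.12 and 0.07 on that scale. None of the 3 calls held with median-of-ratios scaling, and scaling to β-cell markers put Slc2a2 at -0.0053. Slc2a2, Cacna1c and Ffar1 stood at -0.31, 0.05 and 0.14 when the content of acinar RNA entered the fit as a covariate. That content was higher in each cKO library than in each Flox library. In islets of HFD-fed mice infused with a B7-H4 virus, the 9 genes lay between 0.61 and 1.65 above the control virus on the log2 scale. None of them passed the test, and 84.2% of all genes also lay above 0, with a median of 0.44. Without the control libraries at 55.5% and 71.6% acinar RNA, left out after seeing the data, 4 of the 9 genes lay below 0. Scaling to β-cell markers takes out any change that the members share with those markers. It put G6pc2, Abcc8, Cacna1d and Gipr below 0 in the same comparison.

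The glucose signal of the β cell runs from glucose entry and phosphorylation to ATP, which closes the KATP channel, depolarises the membrane and opens voltage-gated calcium channels. The calcium that enters triggers the release of insulin granules. Incretin receptors raise cAMP and the fatty acid receptor acts through Gq, and both amplify a response that glucose has started.

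Each of the 4 groups holds 4 libraries of pancreatic islet RNA. Flox mice are homozygous for a B7-H4 (Vtcn1) allele with an exon between loxP sites, and B7-H4 cKO mice carry the same allele together with Cre recombinase driven by the rat insulin II promoter (RIP-Cre), both on a normal chow diet and of an age that the labels do not give. The labels of the cKO libraries do not name the Cre line, the series description also names a Pdx-Cre line, and the methods name RIP-Cre for cKO mice. No library of mice with Cre and no floxed allele was analysed here, so the deletion and the transgene cannot be told apart. The other groups, Ctrl and OE, are HFD-fed mice that began the diet at 6 weeks of age and after 8 weeks received control virus (AAV2/8-Ctrl) or AAV2/8 with B7-H4-ZSGreen under the rat insulin2 promoter (AAV2/8-Ins2-B7-H4) by pancreatic intraductal infusion, with islets taken 5 weeks later. The series description calls these mice WT and the methods call them Flox. Their labels read H-ins2-C and H-ins2-O, and the reading as control and B7-H4 virus rests on the methods and the column names. Neither source says whether a library came from 1 mouse or from pooled mice, so p-values measure the spread between libraries.

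The libraries differed in exocrine RNA. The 18 acinar genes (digestive enzymes such as Prss2, Cela1 and Cpa1) held 7.05% to 34.0% of the FPKM sum of a Flox library, 34.8% to 44.3% of a cKO library, 2.10% to 71.6% of a Ctrl library and 10.8% to 14.03% of an OE library, and none of the 18 was at 0 in every library of a group. Ctrl2 and Ctrl3 stood at 55.5% and 71.6%, and Ctrl5 at 2.10% with a Gcg level of 91444 FPKM, above the 888.6 to 30835 FPKM of the other 7 libraries of its table. The 8 β-cell markers, among them Ins1, Ins2 and Pdx1, held 35.2% to 54.5% in Flox, 25.6% to 32.6% in cKO, 4.36% to 55.0% in Ctrl and 46.8% to 51.0% in OE, so β-cell RNA was present in all 16 libraries. Vtcn1 lay between 0.0188 and 0.216 FPKM in Flox and between 0.0202 and 0.125 in cKO, too low to check the deletion of an exon, and rose from at most 0.371 FPKM in Ctrl to at least 40.0 in OE. In islet RNA of this kind, fewer cells of a type and less RNA per cell cannot be told apart.

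Slc2a2 encodes the glucose transporter GLUT2, and G6pc2 the islet glucose-6-phosphatase, which returns glucose 6-phosphate to glucose. Slc2a2 lies on chr3:28697903-28731359 and G6pc2 on chr2:69211073-69227841, both on the plus strand of GRCm38. RefSeq (GRCm38.p6) gives 1 start site for Slc2a2 and 2 for G6pc2. The 250 bases before the Slc2a2 start (chr3:28697653-28697902) and before the upstream G6pc2 start (chr2:69210823-69211072) are shown because glucose entry and phosphate exchange open the pathway.
Slc2a2: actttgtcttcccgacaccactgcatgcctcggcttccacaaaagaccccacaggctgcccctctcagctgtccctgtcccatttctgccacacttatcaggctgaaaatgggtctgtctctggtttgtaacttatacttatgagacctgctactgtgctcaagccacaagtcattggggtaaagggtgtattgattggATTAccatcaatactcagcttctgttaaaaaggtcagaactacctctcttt
G6pc2: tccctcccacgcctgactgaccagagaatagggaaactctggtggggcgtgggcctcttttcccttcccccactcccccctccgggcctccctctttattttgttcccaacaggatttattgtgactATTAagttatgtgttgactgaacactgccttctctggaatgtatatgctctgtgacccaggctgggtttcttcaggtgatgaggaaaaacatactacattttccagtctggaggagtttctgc
Capitals mark the letters TAAT, the core that homeodomain factors such as Pdx1 and Nkx6-1 read, found here on the other strand as ATTA. Both windows shown hold it once, 51 bases before the Slc2a2 start and 123 before the G6pc2 start, and 54.92% of all 32851 windows of this length hold it at least once on either strand. Neither of these windows holds CATCTG (an E-box, in 14.44% of all windows), TGCTGA (the start of a Maf site, 16.08%) or TGACGT (the start of a CRE, 6.47%), searched in the same way. The window of the other G6pc2 start, inside the gene at chr2:69219699-69219948 and not shown, holds CATCTG 2 times, TGCTGA 2 times and TAAT 3 times.

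G6pc2 was the most abundant of the 9 genes in all 16 libraries, and Cacna1d and Cacna1c were the least abundant, in that order. FPKM is per kilobase of transcript and so allows levels of different genes to be compared. In cKO islets the group means of the level ran from 1447 FPKM for G6pc2 through 145 for Abcc8, 120.1 for Slc2a2 and 94.6 for Glp1r to 26.4 for Kcnj11, 18.9 for Ffar1, 15.5 for Gipr, 6.63 for Cacna1d and 2.15 for Cacna1c. Abcc8, the KATP channel's regulatory subunit, stood above Slc2a2 in 15 of the 16 libraries, with Flox17 the exception. Glp1r came next in 15 libraries, and in Ctrl5 it lay below Gipr and Kcnj11. Among the 4 groups the Ctrl libraries were the most spread for each gene, with a highest value between 7.89 and 19.2 times the lowest, against 1.03 to 1.34 times in OE. The 2 tables were normalised separately, and levels are compared across them only as a description. By group means, G6pc2 had its lowest level in Ctrl and its highest in cKO, Gipr was lowest in cKO and highest in OE, and the ranges of neighbouring groups overlapped except for Slc2a2 and G6pc2 between Flox and OE and for Glp1r between cKO and OE.

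**Figure D1:**
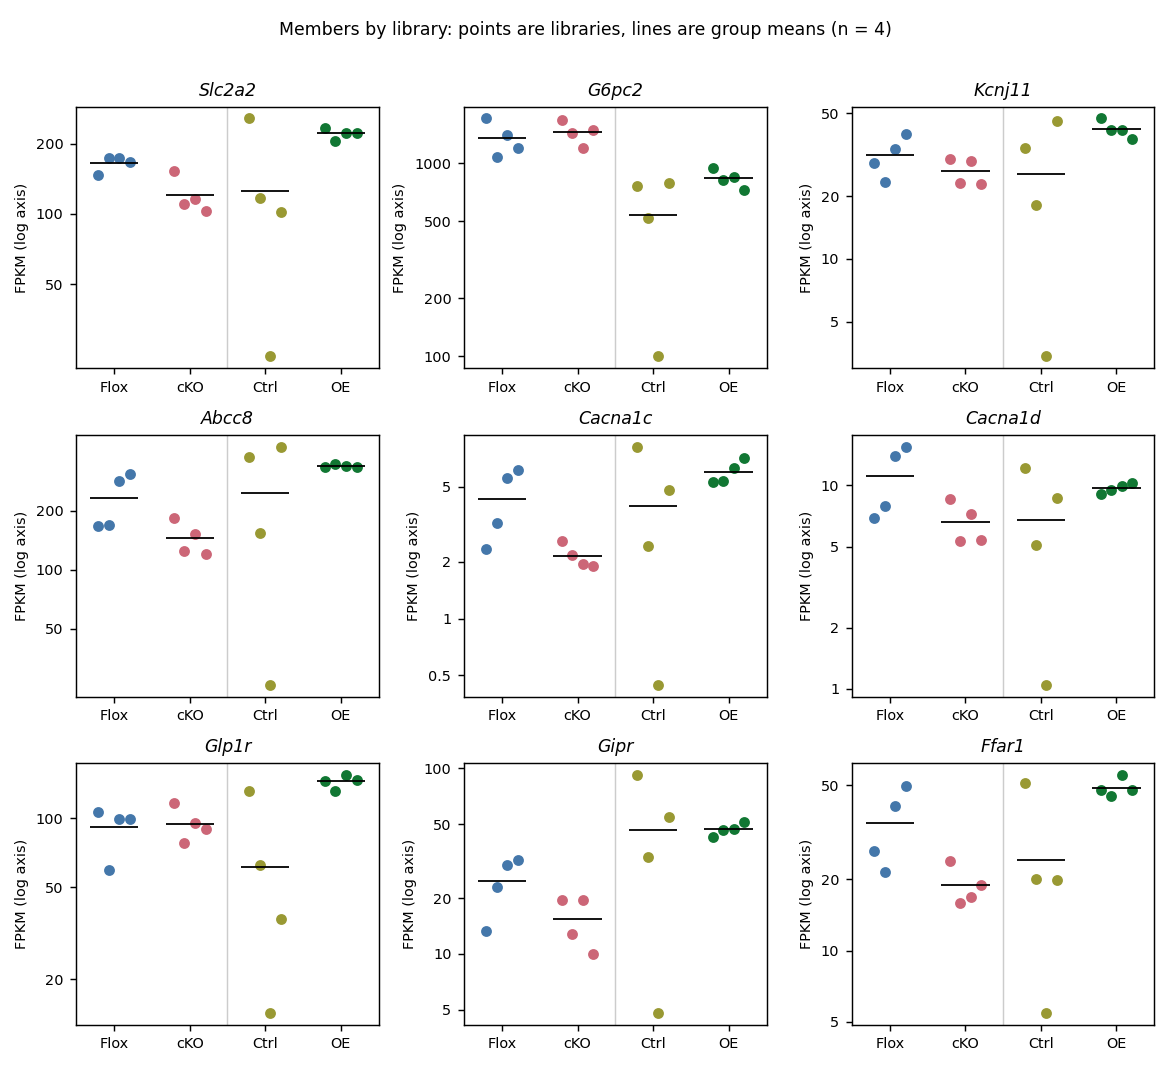
FPKM of the 9 genes by library on log axes, with points for libraries and lines for the means of 4 libraries per group, and a grey line between the separately normalised tables. The OE libraries lie close together while Ctrl3 is the lowest library for each gene, and Flox20 and Flox21 are the highest of their group for Kcnj11, Abcc8, Cacna1c, Cacna1d, Gipr and Ffar1.

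Between cKO and Flox, limma was run on log2(FPKM + 0.5) for the 11804 genes whose table mean reached 0.5 FPKM. At an adjusted p under 0.05, 3 of the 9 members were called lower and 0 higher, beside 12.8% of all genes called lower (1511) and 1.02% called higher (120). Of the 9, 7 lay below 0, as did 86.9% of all genes, and the median of the log2 fold changes was -0.63 for the members and -0.34 for all genes tested. At an unadjusted p under 0.05 there were 5 members lower, beside 38.3% of all genes. No member's groups were without overlap, against 15.4% of all genes whose cKO libraries all lay below their Flox libraries. Scaling by the median of ratios moved the median of all genes by that 0.34 to near 0, gave 145 lower (1.23%) and 129 higher calls and called none of the 9. With the 3 libraries per group of the study's heatmaps, 6 members were called lower beside 63.5% of all genes. Relative to the median of all genes, the members lay between -0.45 (Ffar1) and 0.46 (G6pc2) on the log2 scale.

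Slc2a2 passed the test in cKO islets and G6pc2 did not. The Slc2a2 level was 147, 174, 173 and 167 FPKM in Flox16, Flox17, Flox20 and Flox21, against 152, 109.9, 116 and 103 FPKM in cKO8, cKO9, cKO12 and cKO38. Only cKO8 reached into the Flox range, above Flox16. The means were 165 ± 12.4 FPKM in Flox and 120.1 ± 22.2 in cKO (SD, n = 4), and the log2 fold change was -0.47 (standard error, SE, 0.14, 95% interval -0.77 to -0.17, adjusted p = 0.0392 from limma with Benjamini-Hochberg adjustment), which is -0.13 relative to the median of all genes. The G6pc2 level was 1706, 1073, 1406 and 1204 FPKM in the Flox libraries in the same order and 1670.1, 1428, 1197 and 1494 FPKM in the cKO libraries. These values cover one range. The means of 1347 ± 276 and 1447 ± 196 FPKM (SD, n = 4) gave a log2 fold change of 0.12 (SE 0.14, 95% interval -0.17 to 0.40, limma adjusted p = 0.50), and 0.46 relative to the median of all genes. Scaled by the median of ratios, Slc2a2 stood at -0.09 (adjusted p = 0.725) and G6pc2 at 0.50 (adjusted p = 0.152) in limma's fit. With scaling to the β-cell markers Slc2a2 was at -0.0053. With the acinar share as a covariate Slc2a2 was at -0.31 (SE 0.19, limma adjusted p = 0.689). Each cKO library had a higher acinar share than each Flox library, so this fit cannot tell the share from the genotype. The Slc2a2 call was lost without any 1 of Flox20, Flox21, cKO9, cKO12 and cKO38, with limma adjusted p of 0.112, 0.109, 0.144, 0.0974 and 0.152.

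In the HFD table limma tested 12132 genes, called 4 of them higher (0.033%) and none lower, and called none of the 9 members. On simulated data with the spread of these libraries, drawn gene by gene, it called 1 of 100 genes with a log2 change of 1. With a change of 2 it called 22 of 100, so a missing call says little here. At an unadjusted p under 0.05, 677 genes were higher (5.58%) and 101 lower (0.833%), and Slc2a2, Glp1r and Ffar1 were among the higher. All 9 members lay above 0, as did 84.2% of all genes, and their log2 fold changes had a median of 1.09, beside 0.44 for all genes tested. Glp1r alone among the members had OE libraries that all lay above the Ctrl libraries, as 5.61% of all genes did. Leaving out the acinar-rich Ctrl2 and Ctrl3, a choice made after seeing the data, gave 301 higher and 2692 lower calls (2.44% and 21.9% of 12311 genes), a median of -0.21 over all genes and still no call among the 9. That fit set the OE libraries against Ctrl1 and Ctrl5 alone, and Ctrl5 had a Gcg level of 91444 FPKM, beside 25847 to 30835 in OE. Its values for each member therefore rest on these Ctrl libraries. The acinar shares of Ctrl1 (5.37%) and Ctrl5 (2.10%) lay below the OE range of 10.8% to 14.03%, and those of Ctrl2 and Ctrl3 above it. The part of the acinar share in the result was not tested beyond these values.

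The Slc2a2 level in OE islets was 233, 206, 223 and 223 FPKM in OE1 to OE4, and 256, 117, 24.5 and 102 FPKM in Ctrl1, Ctrl2, Ctrl3 and Ctrl5. Ctrl1 lay above the OE libraries and the other Ctrl libraries below them. The log2 fold change was 1.24 (SE 0.54, 95% interval 0.12 to 2.37, limma adjusted p = 0.591), and 0.45 (SE 0.31, adjusted p = 0.316) without Ctrl2 and Ctrl3. G6pc2 stood at 947, 823, 849 and 729.9 FPKM in OE and at 761, 519, 99.997 and 789 FPKM in Ctrl. Ctrl1 and Ctrl5 lay within the OE range. Its log2 fold change of 0.99 (SE 0.54, limma adjusted p = 0.591) became 0.11 (SE 0.15) without Ctrl2 and Ctrl3, and -0.12 when libraries were scaled to the β-cell markers. Without Ctrl3 alone the log2 fold changes of Slc2a2 and G6pc2 were 0.61 and 0.30.

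**Figure D2:**
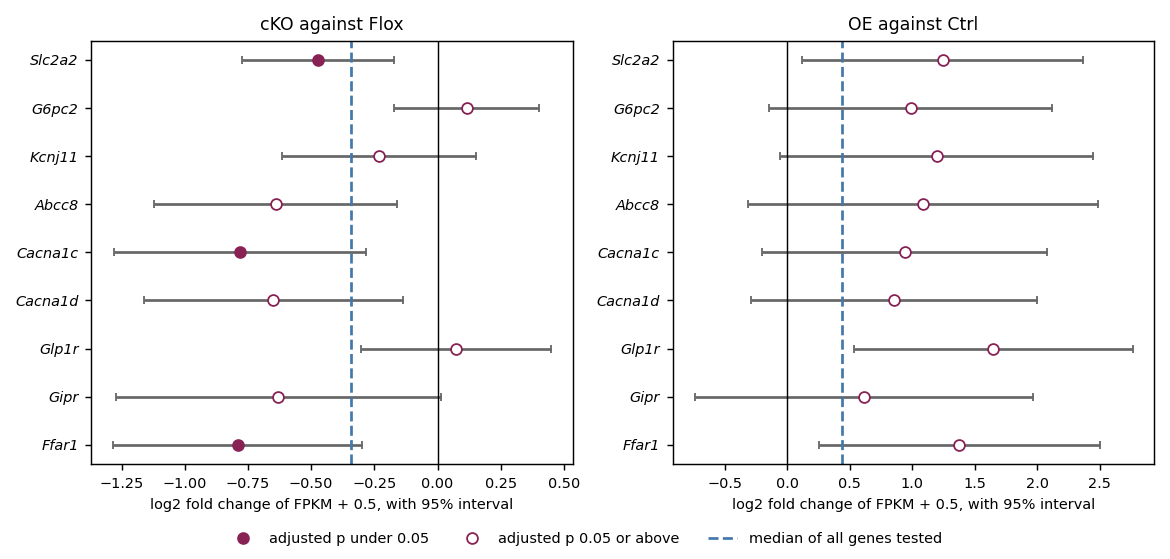
Log2 fold change of FPKM + 0.5 with its 95% interval for each of the 9 genes in cKO against Flox and in OE against Ctrl, with filled points for adjusted p under 0.05. The dashed line is the median of all genes tested, -0.34 on the left and 0.44 on the right. Filled points are Slc2a2, Cacna1c and Ffar1 in cKO, calls that median-of-ratios scaling did not keep, and the intervals in OE are wide.

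Kcnj11 and Abcc8 encode the pore Kir6.2 and the sulfonylurea receptor SUR1, which assemble into the KATP channel. The genes are neighbours on the minus strand of chromosome 7 (chr7:46093953-46100764 and chr7:46104523-46180033 in GRCm38), with 3758 bases between them. Kcnj11 stood at 29.0, 23.5, 33.6 and 39.8 FPKM in Flox16, Flox17, Flox20 and Flox21, against 30.2, 23.2, 29.5 and 23.0 FPKM in cKO8, cKO9, cKO12 and cKO38. Of the cKO libraries, cKO8 and cKO12 lay within the Flox range, and cKO9 and cKO38 just below Flox17, its lowest library. Its log2 fold change of -0.23 (SE 0.18, 95% interval -0.61 to 0.15, limma adjusted p = 0.313) turned to 0.15 with median-of-ratios scaling, 0.12 with the FPKM sum without acinar genes and 0.23 with β-cell marker scaling. Abcc8 was at 168, 169, 285 and 310 FPKM in Flox and at 183, 125, 153 and 121 FPKM in cKO. Flox20 and Flox21, with acinar shares of 10.1% and 7.05%, were far above Flox16 and Flox17, at 26.5% and 34.0%, and cKO8 lay above these last. The log2 fold change of Abcc8 was -0.64 (SE 0.22, 95% interval -1.12 to -0.16, limma adjusted p = 0.0624), -0.30 relative to the median of all genes. It was called without Flox16 (-0.78, adjusted p = 0.0106), without Flox17 (-0.78, 0.0271) and without cKO8 (-0.76, 0.0446), and Kcnj11 only without Flox17 (-0.36, 0.0493).

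In HFD-fed mice the KATP genes differed more between Ctrl libraries than between the groups. Kcnj11 was at 47.3, 41.6, 41.4 and 37.8 FPKM in OE1 to OE4 and at 34.2, 18.2, 3.40 and 46.1 FPKM in Ctrl1, Ctrl2, Ctrl3 and Ctrl5. Abcc8 was at 336, 346, 341 and 337 FPKM in OE and at 376, 155, 25.8 and 426 FPKM in Ctrl. For Kcnj11, Ctrl5 lay within the OE range. For Abcc8, Ctrl1 and Ctrl5 lay above all OE libraries and Ctrl2 and Ctrl3 below them. The log2 fold changes were 1.19 for Kcnj11 (SE 0.60) and 1.09 for Abcc8 (SE 0.66), both with limma adjusted p = 0.591, and 0.07 and -0.24 without Ctrl2 and Ctrl3. Scaling to the β-cell markers gave -0.02 for Abcc8. Without Ctrl3 alone they were 0.44 and 0.22.

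Cacna1c and Cacna1d encode the pore subunits of the L-type calcium channels Cav1.2 and Cav1.3, which carry calcium into the depolarised β cell. They lie on minus strands, at chr6:118587240-119196418 and chr14:30039939-30491455 in GRCm38. Cacna1d shares 589 exonic bases with Chdh on the other strand, which was at 0.143 to 2.55 FPKM, and whether reads were counted by strand is not given in the sources used here. Cacna1c was at 2.34, 3.20, 5.57 and 6.15 FPKM in Flox16, Flox17, Flox20 and Flox21, against 2.57, 2.19, 1.96 and 1.89 FPKM in cKO8, cKO9, cKO12 and cKO38. Of the cKO libraries cKO8 alone exceeded a Flox library, Flox16. Cacna1c had a log2 fold change of -0.78 (SE 0.24, 95% interval -1.28 to -0.28, limma adjusted p = 0.0407), -0.44 relative to the median of all genes. Cacna1d was at 6.95, 7.95, 13.97 and 15.5 FPKM in Flox and at 8.53, 5.34, 7.22 and 5.41 FPKM in cKO. Again Flox20 and Flox21 were the high libraries, and cKO8 and cKO12 lay above Flox16. Its log2 fold change was -0.65 (SE 0.24, 95% interval -1.16 to -0.14, limma adjusted p = 0.0686).

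Both calcium channel genes stayed below 0 under the 3 scalings, at -0.45, -0.47 and -0.38 for Cacna1c and -0.29, -0.31 and -0.21 for Cacna1d, and turned to 0.05 and 0.27 with the acinar share as a covariate. The Cacna1c call was lost without any 1 of Flox20, Flox21, cKO9, cKO12 and cKO38 (limma adjusted p = 0.137, 0.136, 0.116, 0.0899 and 0.12), and Cacna1d was called without Flox16 (-0.84, adjusted p = 0.00992) and without Flox17 (-0.78, 0.0355). In the HFD table Cacna1c was at 5.30, 5.34, 6.27 and 7.07 FPKM in OE1 to OE4 and at 8.18, 2.44, 0.446 and 4.80 FPKM in Ctrl1, Ctrl2, Ctrl3 and Ctrl5. Cacna1d was at 9.06, 9.46, 9.92 and 10.3 FPKM in OE and at 12.2, 5.10, 1.05 and 8.70 FPKM in Ctrl. Both were highest in Ctrl1 of all 8 libraries. The log2 fold changes of 0.94 and 0.85 (SEs 0.55 and 0.55, limma adjusted p = 0.591 for each) became -0.07 and -0.09 without Ctrl2 and Ctrl3, and 0.33 and 0.23 without Ctrl3 alone, and Cacna1d was at -0.12 with β-cell marker scaling.

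Glp1r and Gipr encode the receptors of the incretins GLP-1 and GIP, which couple to Gs and raise cAMP. Glp1r lies on chr17:30901817-30940791 (plus strand) and Gipr on chr7:19156061-19166127 (minus strand) in GRCm38. Glp1r was at 107, 59.6, 98.9 and 99.5 FPKM in Flox16, Flox17, Flox20 and Flox21, against 116, 77.9, 95.3 and 89.4 FPKM in cKO8, cKO9, cKO12 and cKO38. Flox17 was the lowest and cKO8 the highest of the 8 libraries. Glp1r differed by a log2 fold change of 0.07 (SE 0.18, 95% interval -0.30 to 0.45, limma adjusted p = 0.748) and 0.42 relative to the median of all genes. Without Flox17 it was -0.12 and without cKO8 -0.03. Gipr was at 13.3, 23.0, 30.3 and 32.2 FPKM in Flox and at 19.6, 12.9, 19.5 and 10.02 FPKM in cKO. Flox16 lay among the cKO libraries, below cKO8 and cKO12. The log2 fold change of -0.63 (SE 0.29, 95% interval -1.27 to 0.01) did not pass at a limma adjusted p of 0.125, and was -0.89 with adjusted p = 0.00479 without Flox16.

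In HFD-fed mice Glp1r had the largest difference of the 9 members. Glp1r was at 144, 132, 154 and 147 FPKM in OE1 to OE4 and at 131, 62.5, 14.3 and 36.6 FPKM in Ctrl1, Ctrl2, Ctrl3 and Ctrl5. The highest Ctrl library lay just below the lowest OE library. Its log2 fold change was 1.65 (SE 0.53, 95% interval 0.54 to 2.76, limma adjusted p = 0.591), and 1.05 (SE 0.42, adjusted p = 0.105) without Ctrl2 and Ctrl3. Gipr was at 42.5, 46.3, 47.3 and 51.4 FPKM in OE and at 92.2, 33.3, 4.81 and 54.6 FPKM in Ctrl. Ctrl1 and Ctrl5 lay above and Ctrl2 and Ctrl3 below the OE libraries. Gipr gave a log2 fold change of 0.61 (SE 0.65, 95% interval -0.74 to 1.96, limma adjusted p = 0.636), and it turned to -0.60 without Ctrl2 and Ctrl3, -0.24 without Ctrl3, -0.34 with the acinar share as a covariate and -0.47 with β-cell marker scaling. Glp1r stayed above 0 in each of these settings, between 0.55 and 1.16, and was 1.54 without Ctrl5.

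Ffar1 encodes the receptor GPR40, through which long-chain fatty acids enhance insulin secretion. The gene lies on chr7:30857390-30861564 on the minus strand of GRCm38. Its level was 26.2, 21.4, 40.7 and 49.5 FPKM in Flox16, Flox17, Flox20 and Flox21, against 23.8, 15.8, 16.9 and 19.0 FPKM in cKO8, cKO9, cKO12 and cKO38. The cKO libraries lay below Flox16, Flox20 and Flox21, and cKO8 lay above Flox17. Ffar1 had a log2 fold change of -0.79 (SE 0.23, 95% interval -1.28 to -0.30, limma adjusted p = 0.0397), -0.45 relative to the median of all genes. It was -0.41 with median-of-ratios scaling (adjusted p = 0.113), 0.14 with the acinar share as a covariate, and no longer called without any 1 of Flox20, Flox21, cKO9, cKO12 and cKO38 (limma adjusted p = 0.12, 0.116, 0.125, 0.0862 and 0.108). In HFD-fed mice Ffar1 was at 47.5, 44.9, 55.3 and 47.6 FPKM in OE1 to OE4 and at 51.1, 20.1, 5.46 and 19.8 FPKM in Ctrl1, Ctrl2, Ctrl3 and Ctrl5. Ctrl1 lay within the OE range and the other Ctrl libraries well below it. The log2 fold change was 1.38 (SE 0.54, 95% interval 0.25 to 2.50, limma adjusted p = 0.591), 0.60 (SE 0.32) without Ctrl2 and Ctrl3 and 0.82 without Ctrl3 alone.

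**Figure D3:**
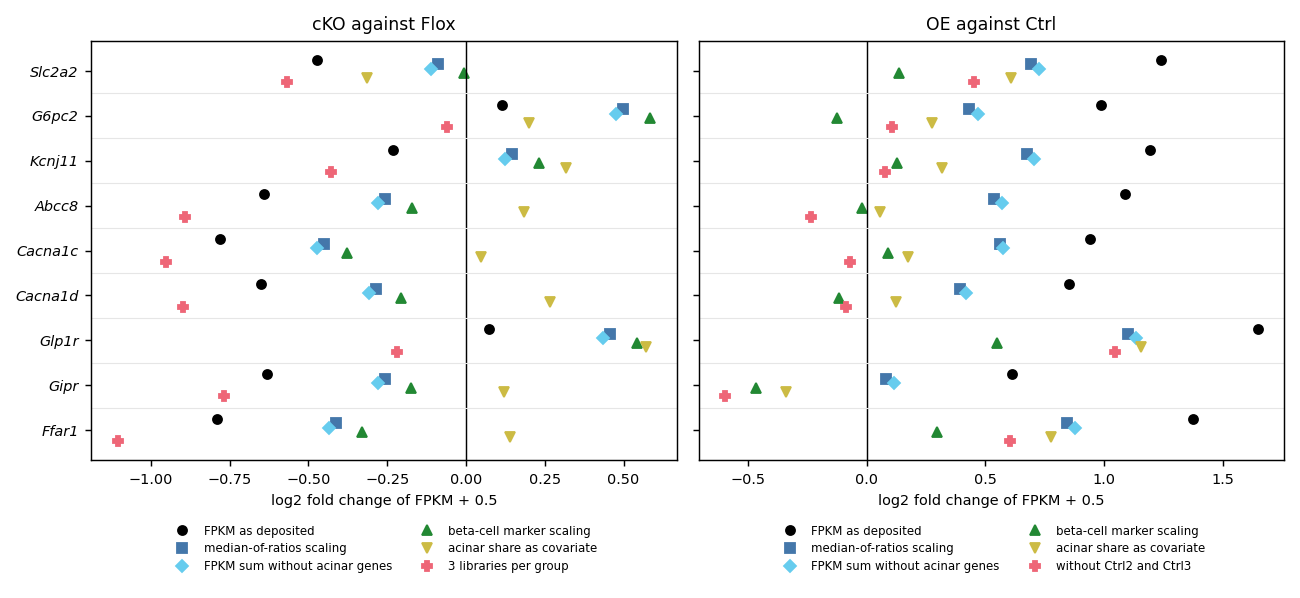
Log2 fold change of FPKM + 0.5 of the 9 genes with the FPKM as deposited and under 5 other scalings or choices of libraries, for cKO against Flox and OE against Ctrl. In cKO, Kcnj11 moves from -0.23 to between 0.12 and 0.32 under the 3 scalings and the acinar covariate and G6pc2 and Glp1r fall to -0.06 and -0.22 with the 3 libraries per group of the study's heatmaps, and in OE Gipr moves from 0.61 to -0.60 without Ctrl2 and Ctrl3.

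Ratios of 2 members within a library do not depend on how the library was scaled. Each of 5 pairs was compared in both tables by exact two-sided permutation over the 70 splits of 8 libraries, where the smallest possible p is 0.0286, and p-values were adjusted over the 10 tests. None of the 10 passed, and the groups of each overlapped. Given that smallest p, no single pair could have passed alone after the adjustment. In cKO islets G6pc2 stood at 10.95, 12.99, 10.4 and 14.6 times Slc2a2 in cKO8, cKO9, cKO12 and cKO38, and in Flox16, Flox17, Flox20 and Flox21 at 11.6, 6.17, 8.12 and 7.20 times. Flox16 alone of the Flox libraries lay among the cKO values. The difference in log2 ratio was 0.59 (SE 0.22, exact p = 0.0857, adjusted p = 0.286). The pore subunit Kcnj11 stood at 0.165, 0.185, 0.193 and 0.190 times Abcc8 in cKO and at 0.172, 0.139, 0.118 and 0.128 times in Flox, a difference of 0.41 in log2 ratio (SE 0.13, exact p = 0.0571, adjusted p = 0.286). Here too Flox16 lay among the cKO libraries, above cKO8. In OE against Ctrl the log2 differences were -0.26 for G6pc2/Slc2a2 (SE 0.30, exact p = 0.457) and 0.15 for Kcnj11/Abcc8 (SE 0.13, exact p = 0.314), the first opposite in sign to that in cKO.

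The ratio of Gipr to Glp1r was below 1 in 15 of 16 libraries. It was 0.124, 0.386, 0.306 and 0.323 in Flox and 0.169, 0.165, 0.205 and 0.112 in cKO, a log2 difference of -0.72 (SE 0.41, exact p = 0.114, adjusted p = 0.286). In the HFD table it was 0.701, 0.534, 0.338 and 1.49 in Ctrl1, Ctrl2, Ctrl3 and Ctrl5 and 0.294, 0.351, 0.306 and 0.349 in OE1 to OE4. Only Ctrl3 lay within the OE range, and the log2 difference was -1.02 (SE 0.45, exact p = 0.0857, adjusted p = 0.286). Ctrl5, where Gipr exceeded Glp1r, was the library with the highest Gcg, and what this contributes was not tested. Cacna1d exceeded Cacna1c in all 16 libraries, by 2.44 to 3.69 times in cKO, 2.48 to 2.97 in Flox, 1.49 to 2.35 in Ctrl and 1.45 to 1.77 in OE, with log2 differences of 0.22 in cKO (exact p = 0.257) and -0.23 in OE (exact p = 0.2). Ffar1 stood at 0.123 to 0.296 times Slc2a2 over the 16 libraries, with differences of -0.33 in cKO (exact p = 0.314) and 0.17 in OE (exact p = 0.143).

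**Figure D4:**
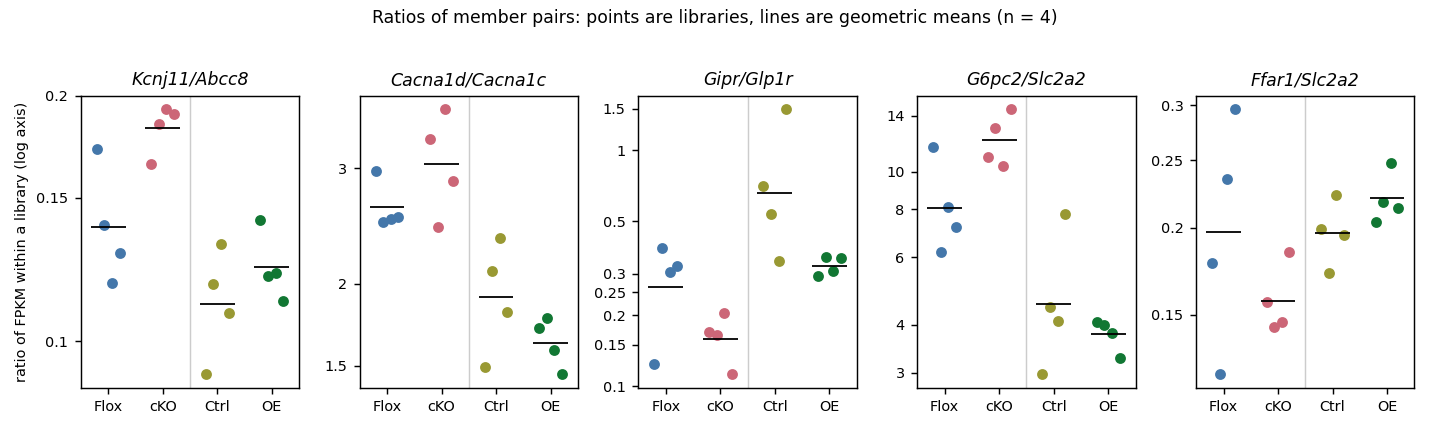
Ratio of FPKM within a library for 5 pairs of members on log axes, with points for libraries and lines for geometric means of 4 libraries. For G6pc2/Slc2a2 and Kcnj11/Abcc8 the cKO libraries lie above Flox17, Flox20 and Flox21 and beside Flox16, and for Gipr/Glp1r the OE libraries lie around Ctrl3 and below the other Ctrl libraries.

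The wider pathway was read from 7 lists with 96 other genes, of which 84 were tested in cKO against Flox. Of these, 17 fell and 1 rose (limma adjusted p under 0.05), beside 12.8% and 1.02% of all genes, and their median log2 fold change was -0.37 beside -0.34 over all genes. The lists, like the members, were chosen with earlier results of these data known. With median-of-ratios scaling 3 of the 84 were called lower and 0 higher, beside 1.23% of all genes called lower, and the 3 were Kcnk3 (-0.94, limma adjusted p = 0.0300), Pde3b (-0.52, 0.0380) and Gnaq (-0.37, 0.0470). The other pathway genes named from cKO islets lost their calls under that scaling. The 17 lower calls became 27 without Flox16, 52 without Flox17, 4 without Flox20 or Flox21, 1 without cKO9, 8 without cKO12 and 2 without cKO38.

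In glucose metabolism, 1 of 14 genes fell and 0 rose, beside 12.8% of all genes called lower. Gpd2, the mitochondrial enzyme of the glycerol phosphate shuttle, fell by 1.04 (limma adjusted p = 0.0169). Among 14 tested genes of membrane potential, 1 fell, the background potassium channel Kcnk3 (from 3.26 ± 0.951 to 1.09 ± 0.350 FPKM, log2 fold change -1.23, adjusted p = 0.0112). Of 8 tested calcium channel subunits beside the members, Cacna2d1, an auxiliary α2δ subunit, and Cacng4, a γ subunit, fell by 0.97 and 0.75 (limma adjusted p = 0.0182 and 0.0319). Cacng4 was low, at 1.19 ± 0.201 FPKM in Flox and 0.532 ± 0.324 in cKO, near the minimum mean of 0.5 FPKM, and its groups overlapped.

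On the cAMP side, which the incretin receptors feed, 4 of 15 tested genes fell and none rose, beside 12.8% of all genes called lower. They were Pde3b, a cAMP phosphodiesterase (-0.89, adjusted p = 0.0162), the transcription factor Creb1 (-0.69, 0.0353), the glucagon receptor Gcgr (-0.86, 0.0356) and Rapgef4, the cAMP sensor Epac2 (-0.65, 0.0363), in log2 fold change with limma's adjusted p. With median-of-ratios scaling Creb1, Gcgr and Rapgef4 were at -0.34, -0.50 and -0.28, not called. In Gq signalling, the route of Ffar1, 3 of 12 fell, namely Gnaq (-0.74, adjusted p = 0.0253), Prkca (-0.68, 0.0324) and the IP3 receptor Itpr3 (-0.85, 0.0441). Among 9 tested inhibitory receptors and their G proteins, the somatostatin receptor Sstr3 fell by 0.83 (adjusted p = 0.0195). Ptger3, a prostaglandin E receptor, rose by 0.89 (adjusted p = 0.0242), from 4.88 ± 1.68 to 9.34 ± 2.10 FPKM. In calcium handling 5 of 12 tested genes fell, beside the same 12.8%, led by the reticulum pump Atp2a2 (-0.67, adjusted p = 0.0141), the store sensor Stim1 (-0.71, 0.0326), the sodium-calcium exchanger Slc8a1 (-0.71, 0.0335) and the kinase Camk2b (-0.60, 0.0431). These 4 were at -0.29, -0.34, -0.39 and -0.22 with median-of-ratios scaling (limma adjusted p = 0.111, 0.0942, 0.106 and 0.147), and Camk2b was at 0.12 with the acinar share as a covariate.

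**Figure D5:**
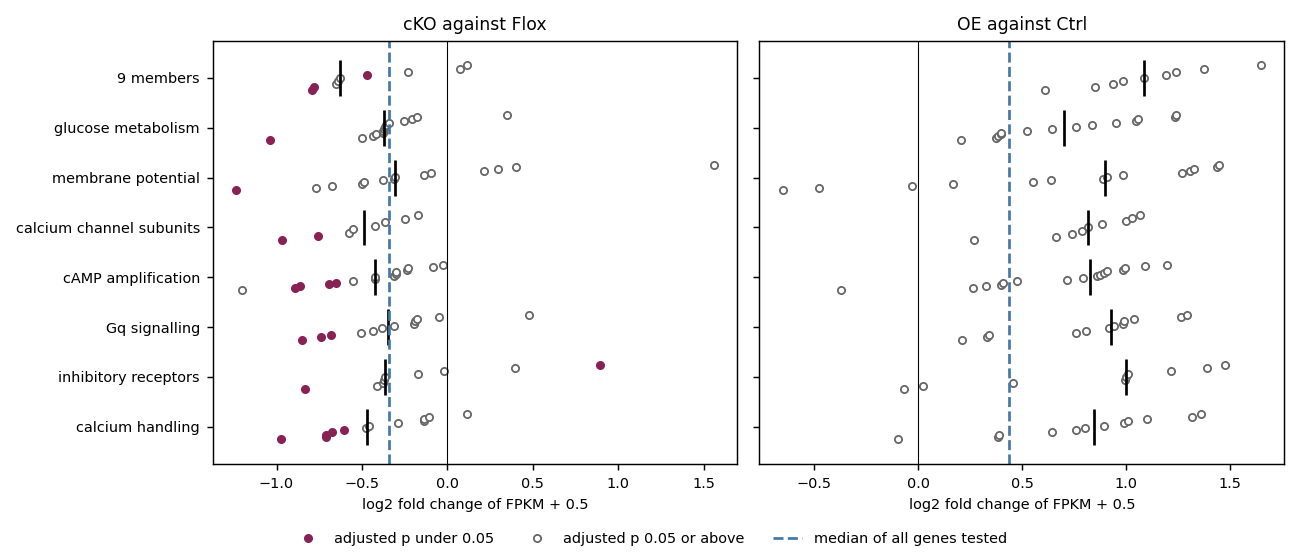
Log2 fold change of FPKM + 0.5 for the 9 members and for the tested genes of 7 pathway lists, 84 in cKO against Flox and 86 in OE against Ctrl, with filled points for adjusted p under 0.05, black ticks for list medians and a dashed line for the median of all genes. In cKO the list medians lie between -0.31 and -0.49, near the median of all genes, and under median-of-ratios scaling 3 pathway genes were called lower; no pathway gene is filled in OE.

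In OE against Ctrl, 86 pathway genes were tested, none was called, and the median log2 fold change was 0.87 over them and 0.44 over all genes. The 2 genes with the highest mean level of each list stood above 0, from 0.76 for the glycolytic enzyme Aldoa to 1.39 for the G protein subunit Gnao1, of which Aldoa, Cacna1a, Gnas, Gna11 and Itpr3 turned below 0 with β-cell marker scaling and Cacna1a, Cacnb3 and Gnas without Ctrl2 and Ctrl3. Between them came Pkm (1.24), Kcnk16 (1.33), Trpm5 (1.31), Cacna1a (0.89), Cacnb3 (1.07), Gnas (0.87), Prkar1a (1.20), Gna11 (0.99), Itpr3 (0.99), Gnai2 (1.22), Atp2a2 (1.36) and Atp2a3 (1.32) in log2 fold change, with a limma adjusted p of 0.591 for each. Without Ctrl2 and Ctrl3, 6 pathway genes were called higher and 6 lower, beside 2.44% of all genes called higher and 21.9% lower in that fit.

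Marker genes of some cell types moved in the direction of the members, and those of others did not. In cKO 4 of 8 β-cell markers and 5 of 6 endothelial markers fell (limma adjusted p under 0.05), with medians of -0.55 and -0.64, beside 12.8% of all genes called lower. Of the other lists, 3 of 7 α-cell, 1 of 7 stromal and the 1 tested lymphocyte marker fell (medians -0.33, -0.56 and -1.20), and 1 of 5 duct markers rose (median 0.49). No other marker list had a call, and the 18 acinar genes lay above 0 with a median of 1.46 and no call. In OE the median of the β-cell markers was 1.12, of the α-cell markers 0.98 and of the acinar genes -0.37, with no call in these lists. The δ- and PP-cell genes had a median of 1.86 with no call. Medians of the duct, stromal and macrophage genes were -0.64, -0.54 and -0.27, and of the endothelial genes 0.14, with no call. The 1 tested lymphocyte marker and the 1 tested intestinal marker stood at 1.54 and 1.66, not called. Of 4 tested neuron and Schwann cell markers, Prph and Vip were called higher in OE (log2 fold changes 2.38 and 2.14, limma adjusted p = 0.00115 and 0.00538), 2 of the 4 calls among all genes, and were named after their values were seen. With the FPKM sum without the 18 acinar genes as the scale, the log2 fold changes in cKO were -0.11 for Slc2a2 (SE 0.11), 0.48 for G6pc2 (SE 0.17) and 0.43 for Glp1r, with limma adjusted p of 0.612, 0.141 and 0.151. The part of cell composition in the members' differences was not tested beyond these values.

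The genes whose pattern over the 16 libraries was most like the members were found by the root mean square difference of log2(FPKM + 0.5) after centring within each table, among 11544 candidates. Nearest to the mean of the 9 members were Abat (0.11), Pitpnm3 (0.12), Nipal1 (0.13), Sirpa (0.13) and Grk3 (0.13). Among the members, Cacna1d lay closest to that mean (0.17) and Glp1r farthest (0.42). The calcium channel genes Cacna1c and Cacna1d were the closest pair (0.15), the KATP genes Kcnj11 and Abcc8 the next (0.23), and the incretin receptors Glp1r and Gipr the farthest (0.68). Cacna1c and Cacna1d were also the least abundant members, and adding 0.5 FPKM narrows the differences of low genes. The single nearest gene was Pfkfb2 for Slc2a2 (0.13), Asic1 for G6pc2 (0.18), Rtl8c for Kcnj11 (0.12), Rundc3a for Abcc8 (0.13), Prkcb for Cacna1c (0.13), Abca2 for Cacna1d (0.09), Gpr158 for Glp1r (0.25), Kif12 for Gipr (0.16) and Dcaf12l1 for Ffar1 (0.14). All genes were read in the same libraries, whose acinar content differed, so this likeness is a description. With median-of-ratios scaling 2, and with a pseudocount of 1, 3 of the 5 genes nearest to the mean were the same.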

How the data were processed

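Islet RNA of 16 libraries was analysed from the 2 deposited tables. Per the labels, sequencing was on a NovaSeq platform, and the submitters' processing notes name the genome build mm10. The authors deposited FPKM values (fragments scaled by transcript length and by the library's mapped reads), and the aligner, counter and annotation are not given in the sources used here. Depth in reads is unknown. Depth relative to the median library of a table, from the step between low values, was 0.942 to 1.07 in the chow table and 0.841 to 1.08 in the HFD table, so values of low genes have unknown counting error. No 2 libraries held the same values.

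For each table, log2(FPKM + 0.5) of the genes whose mean over its 8 libraries reached 0.5 FPKM was fitted in R 4.3.3 with limma 3.58.1 (variance trend, robust fitting), separately for cKO against Flox and OE against Ctrl. The two-sided p-values were corrected after Benjamini-Hochberg over the whole table, with calls made under 0.05. A log2 fold change on this scale understates the change of low genes. Member ratios used exact permutation (Python 3.11.15, scipy 1.17.1). Gene positions are from GENCODE on GRCm38. Upstream windows are those of RefSeq start sites, and the set used here held windows for 6 of the 9 members.

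The members and all gene lists were chosen with earlier results of these data known. Named genes are the 9 members, up to 4 called genes of lowest p per pathway list and comparison or else the 2 of highest mean level, and the genes of like pattern. A further gene of the pathway lists is not reported here and enters none of their counts. Alternatives were pseudocounts of 0.1 and 1, other minimum means, median-of-ratios scaling, the FPKM sum without 18 acinar genes, scaling to 8 β-cell markers, the acinar share as a covariate, the replicate number as a block, limma with neither trend nor robust fitting, the 3 libraries per group of the study's heatmaps, and each library left out. The limma step was tested on simulated data with the spread of these libraries. The noise was drawn for each gene on its own, so it holds no shift that genes of a library share, such as one from acinar RNA. In cKO against Flox it called 70 of 100 genes with a log2 change of 1, 94 of 100 with a change of 2 and 11 unchanged genes. In OE against Ctrl it called 1 and 22 of 100 and 2 unchanged genes, so a missing call there says little. The heatmap of the study shows 3 of the 4 libraries per group; all 4 were used here.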

Additional observations from a re-analysis of the deposited data

Results flagged for a closer look

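Of 56 sets of 4 libraries examined (9 levels and 5 ratios in 4 groups), 2 had 1 library set apart from the other 3 by more than Dixon's 95% critical value, and chance gives about 1 in 20. The Glp1r level of Flox17 was 59.6 FPKM, while the other Flox libraries lay between 98.9 and 107 FPKM. The Cacna1d to Cacna1c ratio of Flox16 was 2.97, while the other Flox libraries lay between 2.48 and 2.53.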

How the results depend on the processing

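In cKO against Flox, counts of genes called higher and lower, members lower, and pathway genes lower and higher were 120, 1511, 3, 17 and 1 with the FPKM as deposited. With no minimum mean all 5 were 0, although 5539 genes had an unadjusted p under 0.05, and with the acinar share as a covariate all were 0, with 992 such genes. Median-of-ratios scaling gave 129, 145, 0, 3 and 0, the FPKM sum without acinar genes 83, 33, 0, 1 and 0, β-cell marker scaling 79, 23, 0, 1 and 0, and limma with neither trend nor robust fitting 170, 974, 0, 15 and 1. The 3 libraries per group gave 316, 7484, 6, 55 and 1. Leaving out each library gave 2 to 348, 17 to 6759, 0 to 6, 1 to 52 and 0 to 4. The replicate block gave 289, 2455, 6, 26 and 1, but same-numbered samples correlated at -0.19, 0.12, -0.01 and -0.21 (cKO and Flox) and -0.13, -0.10, -0.02 and 0.10 (OE and Ctrl), so the numbers do not pair the samples, and 1 of 8 correlated best with its own number. Why the counts moved was not tested.

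Kcnj11 reversed in cKO to 0.15, 0.12, 0.23 and 0.32 with median-of-ratios, no-acinar and β-cell marker scaling and the acinar covariate. The covariate also turned Abcc8 to 0.18, Cacna1c to 0.0474, Cacna1d to 0.27, Gipr to 0.12, Ffar1 to 0.14 and Camk2b to 0.12. With the 3 libraries G6pc2 was -0.0594 and Glp1r -0.22, and Glp1r ranged from -0.12 to 0.16 over single libraries left out.

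In OE against Ctrl, 4 genes were called higher and 0 lower. No minimum mean gave 13 higher, median-of-ratios scaling 1 lower, the no-acinar sum 2 lower, and the acinar covariate 93 higher and 438 lower, with 1 pathway gene each way. β-cell marker scaling reversed G6pc2 (-0.12), Abcc8 (-0.0187), Cacna1d (-0.12), Gipr (-0.47), Aldoa (-0.35), Cacna1a (-0.15), Gnas (-0.23), Gna11 (-0.0948) and Itpr3 (-0.0525), and the covariate Gipr (-0.34). Scaling to the β-cell markers takes out any change that other genes share with them. With libraries left out, from each alone to Ctrl2 and Ctrl3 together (chosen after seeing the data), the genes called were 4 to 301 higher and 0 to 2692 lower, the pathway genes 0 to 6 higher and 0 to 6 lower. The lowest and highest log2 fold changes were -0.24 and 1.56 for Abcc8, -0.0716 and 1.40 for Cacna1c, -0.0881 and 1.24 for Cacna1d, -0.60 and 1.14 for Gipr, -0.16 and 1.32 for Cacna1a, -0.14 and 1.60 for Cacnb3 and -0.24 and 1.43 for Gnas.

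Of the ratios, Gipr/Glp1r in OE with FPKM + 0.5 was -1.04 (exact p = 0.0286, unadjusted). Over single libraries left out, the log2 difference ran from 0.33 to 0.51 for Kcnj11/Abcc8, 0.46 to 0.77 for G6pc2/Slc2a2 and -1.08 to -0.54 for Gipr/Glp1r in cKO, and from -1.34 to -0.63 for Gipr/Glp1r, -0.35 to -0.13 for Cacna1d/Cacna1c and -0.46 to -0.00164 for G6pc2/Slc2a2 in OE, with no direction changed. Read depth is unknown, so counting error of low genes could not be set.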
